A study of Dorcoceras hygrometricum with 3 samples.

Results

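Respiration and mitochondrial energy genes were followed in leaf DNA methylation tables of the resurrection plant Boea hygrometrica (catalogued as Dorcoceras hygrometricum), whose leaves survive near-complete loss of water. They were chosen by their KEGG description alone, as genes described with NADH dehydrogenase, cytochrome c, ubiquinol, ATP synthase, H+-transporting ATPase, pyruvate, citrate, isocitrate, succinate, malate dehydrogenase or mitochondrial, leaving out solute carriers and ribosomal proteins. The rule reads no methylation value, although it and the role groups were set with earlier results of these data known. The rule found 52 of the 5575 genes in the 2 deposited tables, 32 in each table and 12 in both. Leaves of potted plants were dehydrated to 70% relative water content (RWC), desiccated to 10% RWC or kept hydrated (HD), with 1 bisulfite sequencing library per condition and 3 libraries in all. No replicate check or p-value is therefore possible, and a difference between conditions cannot be told apart from one between plants or library preparations. Each table gives, for each listed gene, 1 region whose methylation level differed between a dehydrated library and the hydrated library. The level is an average methylation level per the file headers, a fraction from 0 to 1. Bisulfite sequencing reads methylation from cytosines left unconverted, but the headers do not say how the calls were averaged. Read depth, sequence context and strand are not given, so no interval is attached to a single level. The tables hold only methylation, so neither the leaf label nor the activity of any gene could be checked in them.

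Respiration takes electrons from organic acids and passes them along complexes I to IV of the inner mitochondrial membrane, and the proton gradient this builds drives ATP synthase. The citric acid cycle supplies the electrons, and pyruvate from glycolysis feeds the cycle. Plants also have single-polypeptide NADH dehydrogenases, called type II, that bypass complex I without pumping protons. In leaves these routes share substrates with photosynthesis and with pathways of the plastid and cytosol. DNA methylation in plants occurs in gene bodies and in flanking sequence, and its relation to transcription depends on the place.

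The label covers only part of the members. By their descriptions, at least 28 of the 52 genes act outside mitochondrial respiration or match entries of the plastid enzyme. Among them are 5 plasma membrane and 3 vacuolar proton pumps, 6 pyruvate kinase genes of glycolysis, and the lyases for argininosuccinate and adenylosuccinate, which serve arginine and purine synthesis. The remaining 24 hold the respiratory complexes, ATP synthase subunits beta and d, citrate synthase, malate dehydrogenase, pyruvate dehydrogenase and proteins of mitochondrial upkeep. Terms of some of these name the plastid or peroxisome, in part without naming the mitochondrion. Not all 24 are therefore settled as mitochondrial. A Gene Ontology term naming the mitochondrion was attached to 7 members, a term naming the plastid, chloroplast or thylakoid to 19, and both to 3. The KEGG match of 6 members was weak, with an E-value above 1e-30.

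At 70% RWC most of these genes carried a region of higher methylation, as did most listed genes. The level was higher at 70% RWC than in the hydrated leaf for 26 of 32 members and lower for 6, where 29.4% of all listed genes were lower. The increased share was 81.2% (exact 95% binomial interval 63.6 to 92.8, counting only), beside 70.6% of all 3177 listed genes and 72.6% of the 1611 listed genes with a KEGG description. Both background shares lie within the members' interval. Differences were modest: the median absolute difference was 0.18 (quartiles 0.15 and 0.245), beside 0.22 for all listed genes, and 4 members (12.5%) differed by at least 0.3, against 25.1% of all listed genes.

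At 10% RWC the members were more evenly divided. The level was higher at 10% RWC for 20 of 32 members and lower for 12, a share of 62.5% (43.7 to 78.9). Of all 3660 listed genes 55.8% were higher, and of the 1838 with a description 56.9%, again inside the members' interval. The median absolute difference was 0.18 (quartiles 0.1275 and 0.265), beside 0.20 for all listed genes. A difference of at least 0.3 was listed for 5 members (15.6%), against 23.0% of all listed genes. Both tables set their dehydrated library against the same hydrated library, so the split at 70% RWC and the split at 10% RWC are not independent.

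**Figure D1:**
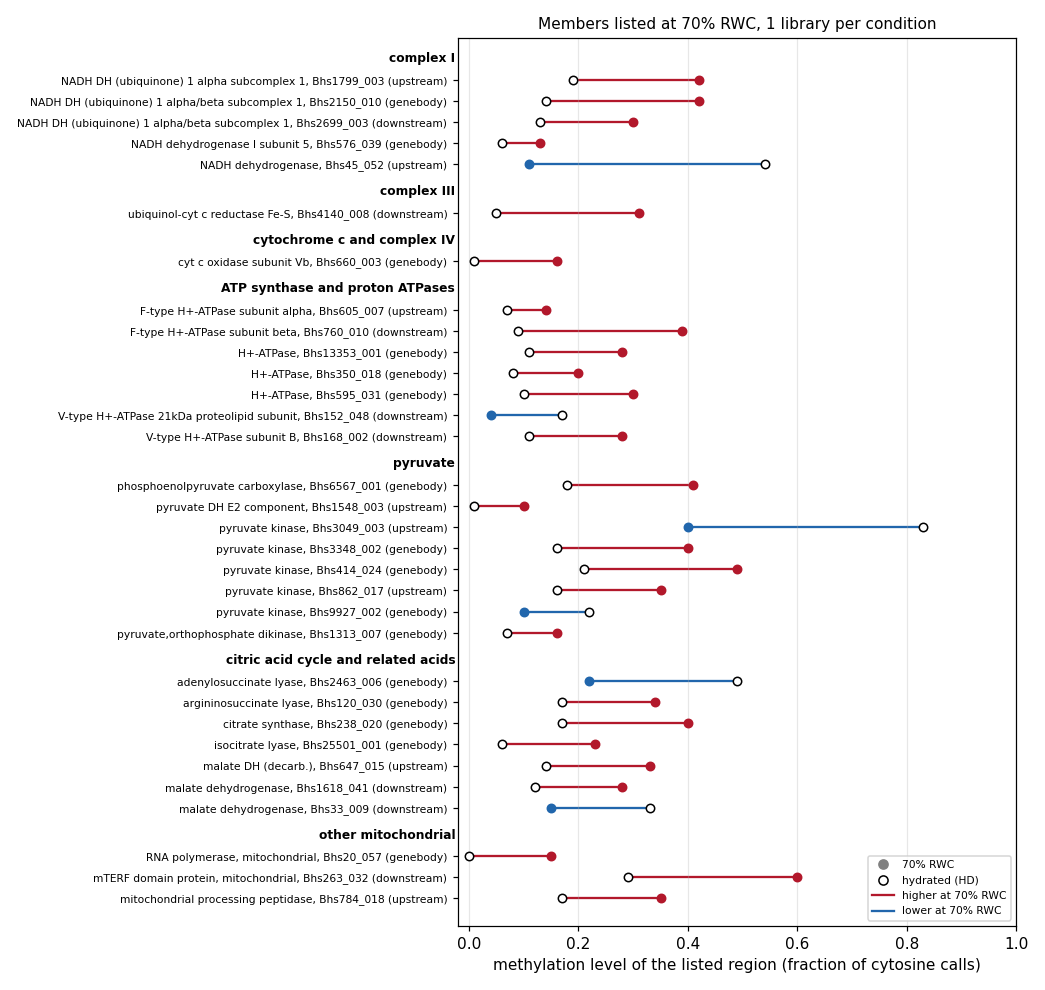
Methylation level (fraction, horizontal axis) of the region listed for each of the 32 members at 70% RWC, with filled points for the 70% RWC library and open points for the hydrated library, joined by a red line where the level was higher at 70% RWC and a blue line where it was lower. Of the members, 26 are red and 6 blue, and the longest blue lines belong to an NADH dehydrogenase gene and a pyruvate kinase gene, each with a difference of -0.43.

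**Figure D2:**
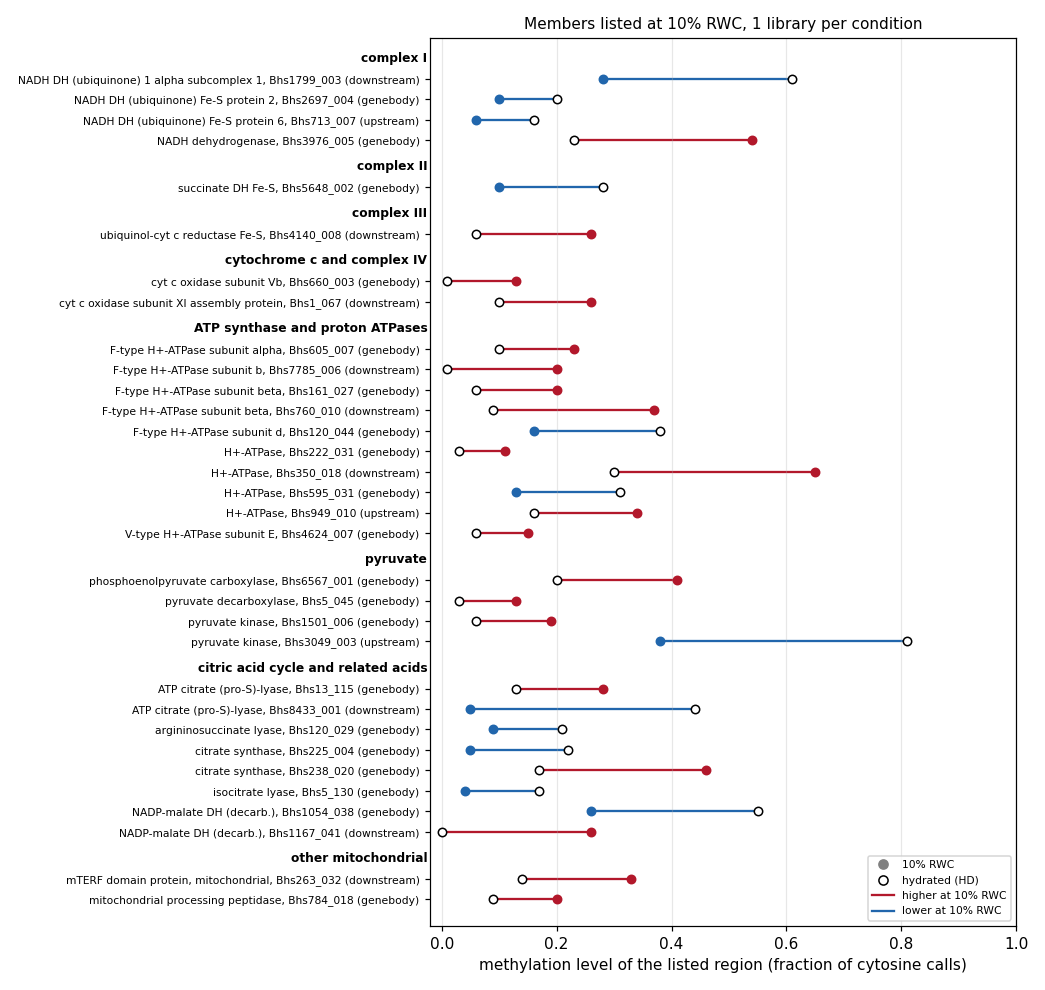
Methylation level (fraction, horizontal axis) of the region listed for each of the 32 members at 10% RWC, filled points for the 10% RWC library and open points for the hydrated library, with red and blue lines for higher and lower levels at 10% RWC. Of the members, 20 are red and 12 blue, and the citric acid cycle group holds 5 of the blue lines.

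Complex I, the proton-pumping entry point for electrons from NADH, had 6 subunit genes among the members, and the direction listed for them differed between the tables. All 4 listed at 70% RWC had a higher level there, and all 3 listed at 10% RWC had a lower level there. Of all listed genes, 70.6% had a gain at 70% RWC and 44.2% a loss at 10% RWC. Counts this small do not set the group apart from those shares, and the difference between the tables was not tested. The KEGG matches of Bhs1799_003V1.1, Bhs2150_010V1.1 and Bhs713_007V1.1 are weak (E-values 7e-22, 5e-07 and 9e-30). Without them Bhs2699_003V1.1 and Bhs576_039V1.1 remain at 70% RWC, and Bhs2697_004V1.1 alone at 10% RWC. Only Bhs1799_003V1.1 was in both tables. This short gene of 273 bp, described as alpha subcomplex subunit 1, a small membrane-arm subunit, was listed for separate regions. Upstream, 569 bp from the gene (scaffold1799, 12703 to 12999), the level was 0.42 at 70% RWC and 0.19 in the hydrated leaf. Downstream, 1408 bp from the gene (scaffold1799, 15248 to 16001), it was 0.28 at 10% RWC and 0.61 in the hydrated leaf. A gain and a loss were thus listed on opposite sides of the same gene, at stretches 2248 bp apart. The region with the gain was also listed in the body of the neighbouring gene Bhs1799_002V1.1, which has no description. It therefore cannot be assigned to the complex I gene alone.

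The other complex I genes were in 1 table each. The body of Bhs2150_010V1.1 was at 0.42 at 70% RWC and 0.14 in the hydrated leaf. Downstream of Bhs2699_003V1.1 the level was 0.30 at 70% RWC and 0.13 in the hydrated leaf. That region was also listed in the body of Bhs2699_004V1.1 and downstream of Bhs2699_005V1.1, so it cannot be assigned to the complex I gene alone. Bhs2150_010V1.1 and Bhs2699_003V1.1 are both described as alpha/beta subcomplex subunit 1, which is an acyl carrier protein. The match of Bhs2150_010V1.1 is weak (E-value 5e-07) and its terms name the plastid and fatty acid metabolism. At 10% RWC the level upstream of Bhs713_007V1.1, described as Fe-S protein 6, was 0.06, against 0.16 in the hydrated leaf.

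Copies of subunits that flowering plants usually encode in the mitochondrial genome were also among them. In the 26360 bp body of Bhs576_039V1.1, described as subunit 5, the level was 0.13 at 70% RWC and 0.06 in the hydrated leaf. Within Bhs2697_004V1.1, described as Fe-S protein 2, it was 0.10 at 10% RWC and 0.20 in the hydrated leaf. These are among the smallest differences of the members. Whether their scaffolds are nuclear or mitochondrial is not stated in the tables. The scaffold of Bhs576_039V1.1 reached at least 640260 bp. Other genes listed on it are described as a putative glutathione S-transferase, the phosphatase BSU1 and large subunit ribosomal protein L2. The scaffold of Bhs2697_004V1.1 reached at least 98722 bp, and its 1 other listed gene has no description.

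The type II NADH dehydrogenases, which carry the same keyword, had large differences in opposite directions in different genes. Upstream of Bhs45_052V1.1 (scaffold45, 350719 to 350993, 1651 bp from the gene) the level was 0.11 at 70% RWC and 0.54 in the hydrated leaf. In the 13289 bp body of Bhs3976_005V1.1 (scaffold3976, 88974 to 89218) it was 0.54 at 10% RWC and 0.23 in the hydrated leaf. The differences were -0.43 and 0.31, and no member at 70% RWC had a larger loss than the first. The region of Bhs45_052V1.1 was also listed for a neighbouring gene without a description, as a downstream region.

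Complexes II to IV were represented by few genes. Complex II, succinate dehydrogenase, was listed at 10% RWC alone, for its iron-sulfur subunit gene Bhs5648_002V1.1, whose body had a level of 0.10 at 10% RWC and 0.28 in the hydrated leaf. Complex III was represented by the gene of its Rieske-type iron-sulfur subunit, Bhs4140_008V1.1. A long stretch downstream of it was at 0.31 at 70% RWC and 0.05 in the hydrated leaf (53540 to 54739 on scaffold4140), and almost the same stretch was at 0.26 at 10% RWC and 0.06 in the hydrated leaf (53560 to 54701). This region was also listed in the body of Bhs4140_009V1.1, a sterol 14-demethylase gene of the cytochrome P450 family, so it cannot be assigned to the respiratory gene alone.

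For complex IV, cytochrome c oxidase, the gene of subunit Vb, Bhs660_003V1.1, carried in its body a stretch that was nearly unmethylated in the hydrated leaf (scaffold660, 45124 to 45571 in the first table, with a closely matching stretch in the second). The level was 0.16 at 70% RWC and 0.01 in the hydrated leaf in one table, and 0.13 at 10% RWC and 0.01 in the hydrated leaf in the other. This subunit is nuclear encoded and sits at the matrix side of the enzyme. Downstream of Bhs1_067V1.1, which encodes the Cox11-type factor that delivers copper to the oxidase, the level was 0.26 at 10% RWC and 0.10 in the hydrated leaf, at a region listed in the body of the adjoining splicing factor gene Bhs1_066V1.1.

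Genes of F-type ATP synthase mostly had higher levels in both tables, 2 of 2 at 70% RWC and 4 of 5 at 10% RWC, beside 70.6% and 55.8% of all listed genes. Listed in both tables was Bhs760_010V1.1, which encodes a catalytic beta subunit with terms for the mitochondrial enzyme. Its downstream region (scaffold760, 403572 to 403881, 1094 bp from the gene) had identical boundaries in both tables. The level was 0.39 at 70% RWC and 0.37 at 10% RWC, and both tables gave 0.09 for the hydrated leaf. A second beta subunit gene, Bhs161_027V1.1, was listed for its body, at 0.20 at 10% RWC and 0.06 in the hydrated leaf.

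The exception was Bhs120_044V1.1, described as subunit d, a part of the stalk that links the catalytic head to the membrane in the mitochondrial enzyme. Across the edge of its body the level was 0.16 at 10% RWC and 0.38 in the hydrated leaf, and the region was shared with a neighbouring gene. The alpha and b subunit members belong to KEGG entries used for plastid and bacterial enzymes. Bhs605_007V1.1 is a 219 bp gene matched to subunit alpha, much shorter than a whole alpha subunit gene. Plants encode that subunit in the organelle genomes. The tables do not state whether the scaffold of Bhs605_007V1.1 is nuclear, which limits what its levels describe. That scaffold reached at least 330867 bp. Another gene listed on it is described as subunit RPABC3 of DNA-directed RNA polymerases I, II and III. At 70% RWC a region that overlapped Bhs605_007V1.1 by 6 bp was at 0.14, against 0.07 in the hydrated leaf. At 10% RWC a region of 1088 bp that covered the whole gene was at 0.23, against 0.10 in the hydrated leaf. Downstream of the subunit b gene Bhs7785_006V1.1, which has a thylakoid term, the level was 0.20 at 10% RWC and 0.01 in the hydrated leaf.

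Proton pumps of other membranes, which use ATP instead of making it, followed the same majority. All 3 plasma membrane H+-ATPase genes listed at 70% RWC and 3 of 4 at 10% RWC had higher levels, beside 70.6% and 55.8% of all listed genes. The largest increase of any member at 10% RWC, as a difference of fractions, was downstream of Bhs350_018V1.1, at 0.65 at 10% RWC and 0.30 in the hydrated leaf (scaffold350, 97789 to 97995). That region was listed for 3 genes. At 70% RWC the same gene was listed for a region in its body, at 0.20 at 70% RWC and 0.08 in the hydrated leaf.

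Bhs595_031V1.1, another plasma membrane pump gene, with a body of 14484 bp, carried a gain and a loss inside the same gene. At 70% RWC one stretch of the body was at 0.30, against 0.10 in the hydrated leaf. At 10% RWC another stretch 3004 bp away was at 0.13, against 0.31 in the hydrated leaf. The remaining plasma membrane genes were higher. The body of Bhs13353_001V1.1 was at 0.28 at 70% RWC and 0.11 in the hydrated leaf, that of Bhs222_031V1.1 at 0.11 at 10% RWC and 0.03 in the hydrated leaf, and the upstream region of Bhs949_010V1.1 at 0.34 at 10% RWC and 0.16 in the hydrated leaf. The vacuolar pump acidifies the vacuole, where plant cells store ions and sugars. Vacuolar pump subunit genes had 0.28 at 70% RWC and 0.11 in the hydrated leaf downstream of Bhs168_002V1.1, and 0.04 at 70% RWC and 0.17 in the hydrated leaf downstream of Bhs152_048V1.1. These downstream regions were also listed in the bodies of the neighbouring genes Bhs168_003V1.1 and Bhs152_047V1.1. Within the subunit E gene Bhs4624_007V1.1 the level was 0.15 at 10% RWC and 0.06 in the hydrated leaf.

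Pyruvate kinase, which makes pyruvate and ATP in the last step of glycolysis, was the most frequent enzyme of the pyruvate group, with 6 genes. Upstream of Bhs3049_003V1.1, whose terms name the plastid stroma, the level was 0.40 at 70% RWC and 0.83 in the hydrated leaf (scaffold3049, 63173 to 63619). In the 10% RWC table a stretch lying inside it (63242 to 63563) was at 0.38 at 10% RWC and 0.81 in the hydrated leaf. The hydrated level of 0.83 was the highest among all members in either table, and the difference was -0.43 in both tables. At 70% RWC this equals the loss at the type II gene Bhs45_052V1.1. As log2 ratios, with 0.01 added to each level, it was -1.03 at 70% RWC and -1.07 at 10% RWC, against -2.20 for Bhs45_052V1.1, so relative to the hydrated level it was the smallest of the 6 losses at 70% RWC.

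The other pyruvate kinase genes were listed once each. Their levels were 0.40 at 70% RWC and 0.16 in the hydrated leaf in the body of Bhs3348_002V1.1, and 0.49 at 70% RWC and 0.21 in the hydrated leaf in that of Bhs414_024V1.1. Upstream of Bhs862_017V1.1 the level was 0.35 at 70% RWC and 0.16 in the hydrated leaf. That region was also listed in the body of the neighbouring gene Bhs862_018V1.1. Bhs9927_002V1.1 had a lower level in its body, at 0.10 at 70% RWC and 0.22 in the hydrated leaf. At 10% RWC the body of Bhs1501_006V1.1 was at 0.19, against 0.06 in the hydrated leaf. Gains and losses thus occurred among genes of 1 enzyme, 3 higher and 2 lower at 70% RWC and 1 of each at 10% RWC.

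The other enzymes around pyruvate, at most 3 per table, were listed with higher levels, as were most genes of both tables. Pyruvate dehydrogenase, the entry to the citric acid cycle, was listed for its E2 component gene Bhs1548_003V1.1. This gene has a term naming the plastid, chloroplast or thylakoid and none naming the mitochondrion, so its part in the cycle is not settled. The level 255 bp upstream of it was 0.10 at 70% RWC and 0.01 in the hydrated leaf. Phosphoenolpyruvate carboxylase, which replenishes cycle acids from the cytosol, was in both tables for nearly the same stretch of the body of Bhs6567_001V1.1. One table gave 0.41 at 70% RWC and 0.18 in the hydrated leaf, the other 0.41 at 10% RWC and 0.20 in the hydrated leaf. Pyruvate decarboxylase, the first enzyme of ethanolic fermentation, had 0.13 at 10% RWC and 0.03 in the hydrated leaf in the body of Bhs5_045V1.1. Pyruvate,orthophosphate dikinase, which turns pyruvate back into phosphoenolpyruvate, had 0.16 at 70% RWC and 0.07 in the hydrated leaf in the body of Bhs1313_007V1.1.

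Besides complex I, the citric acid cycle and related acids were the group of several members in which losses outnumbered gains at 10% RWC, with 3 higher and 5 lower, beside 44.2% of all listed genes lower. At 70% RWC the group had 5 higher and 2 lower, beside 70.6% of all listed genes higher. Groups this small are not set apart from those shares by their counts. Citrate synthase, which starts the cycle, showed both directions in different genes. In the body of Bhs238_020V1.1 (scaffold238, 255874 to 256090) both tables listed the same stretch, at 0.40 at 70% RWC and 0.46 at 10% RWC, with 0.17 for the hydrated leaf in both. Its terms name the peroxisome, where a citrate synthase serves the breakdown of fatty acids. The body of Bhs225_004V1.1, whose terms include the mitochondrion, was at 0.05 at 10% RWC and 0.22 in the hydrated leaf.

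Malate dehydrogenases interconvert malate and oxaloacetate, and malic enzymes decarboxylate malate to pyruvate. The malate dehydrogenase gene Bhs1618_041V1.1 had 0.28 at 70% RWC and 0.12 in the hydrated leaf downstream, while Bhs33_009V1.1 had 0.15 at 70% RWC and 0.33 in the hydrated leaf downstream. The region of Bhs33_009V1.1 was also listed in the body of Bhs33_010V1.1. Bhs33_009V1.1 has a term naming the plastid, chloroplast or thylakoid and none naming the mitochondrion. Upstream of Bhs647_015V1.1, an NAD-dependent malic enzyme gene with a mitochondrial term, the level was 0.33 at 70% RWC and 0.14 in the hydrated leaf. The NADP-dependent malic enzyme genes were listed at 10% RWC with opposite directions. The body of Bhs1054_038V1.1 was at 0.26 at 10% RWC and 0.55 in the hydrated leaf, and downstream of Bhs1167_041V1.1 the level was 0.26 at 10% RWC and listed at 0 in the hydrated leaf.

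Other enzymes of this keyword group lie outside the cycle. ATP citrate lyase, which makes cytosolic acetyl-CoA, had the largest loss of the group downstream of Bhs8433_001V1.1 (scaffold8433, 16318 to 16584), at 0.05 at 10% RWC and 0.44 in the hydrated leaf. A second such gene, Bhs13_115V1.1, was higher in its body, at 0.28 at 10% RWC and 0.13 in the hydrated leaf. Isocitrate lyase, of the glyoxylate cycle, had 0.23 at 70% RWC and 0.06 in the hydrated leaf in the body of Bhs25501_001V1.1, and 0.04 at 10% RWC and 0.17 in the hydrated leaf in that of Bhs5_130V1.1, whose match is weak (E-value 3e-08).

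The argininosuccinate lyase genes Bhs120_029V1.1 and Bhs120_030V1.1 are neighbours on scaffold120. The body of Bhs120_030V1.1 was at 0.34 at 70% RWC and 0.17 in the hydrated leaf, and that of Bhs120_029V1.1 at 0.09 at 10% RWC and 0.21 in the hydrated leaf. The adenylosuccinate lyase gene Bhs2463_006V1.1 was at 0.22 at 70% RWC and 0.49 in the hydrated leaf.

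The genes of mitochondrial upkeep, grouped by description, had higher levels in every listing. These were 3 at 70% RWC and 2 at 10% RWC, beside 70.6% and 55.8% of all listed genes. None of them has a Gene Ontology term naming the mitochondrion, and the match of Bhs263_032V1.1 is weak (E-value 4e-28). Downstream of Bhs263_032V1.1, an mTERF protein of a family that acts in organelle gene expression, the level was 0.60 at 70% RWC and 0.29 in the hydrated leaf, the largest gain of any member at 70% RWC as a difference of fractions. A shorter stretch inside the same region was at 0.33 at 10% RWC and 0.14 in the hydrated leaf. Since the hydrated levels of these stretches differ, their dehydrated levels are not comparable. Within Bhs20_057V1.1, a phage-type organelle RNA polymerase, the level was 0.15 at 70% RWC and listed at 0 in the hydrated leaf. This gene has a term naming the plastid, chloroplast or thylakoid. Bhs784_018V1.1, matched to the peptidase that trims imported mitochondrial proteins, was at 0.35 at 70% RWC and 0.17 in the hydrated leaf upstream, and at 0.20 at 10% RWC and 0.09 in the hydrated leaf in its body. Its upstream region was also listed in the body of the neighbouring gene Bhs784_019V1.1.

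**Figure D3:**
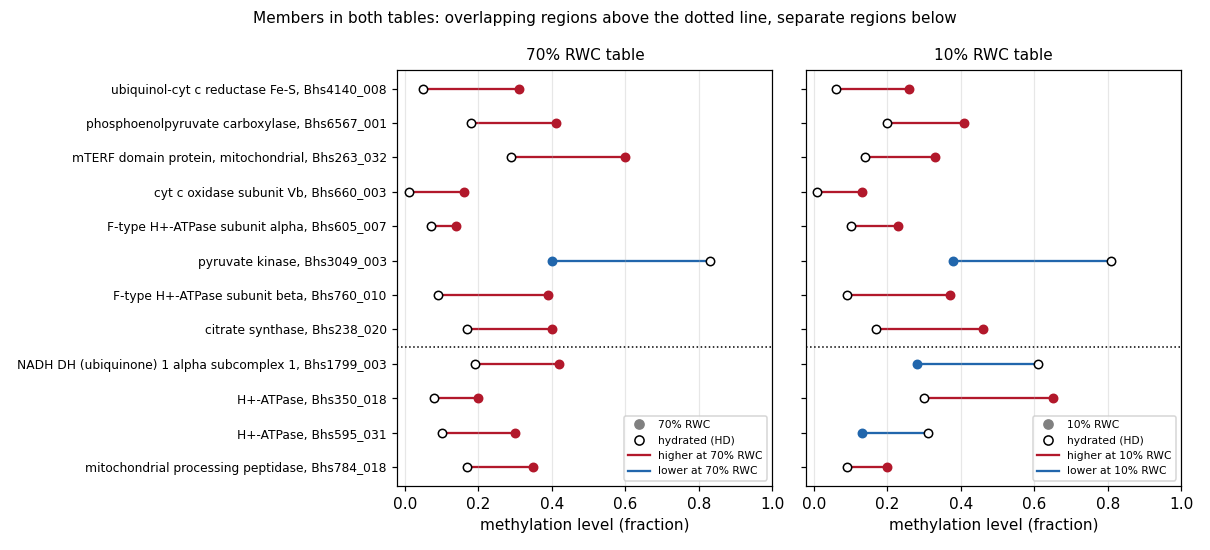
Methylation levels (fraction, horizontal axes) of the 12 members in both tables, 70% RWC at left and 10% RWC at right, with filled points for the dehydrated library and open points for the hydrated library. The 8 genes with overlapping regions stand above the dotted line and the 4 with separate regions below it, and both panels share the hydrated library.

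The 12 genes in both tables were 37.5% of the members of each, beside 39.7% and 34.5% for the 1262 genes in both tables among all genes listed at 70% RWC and at 10% RWC. Regions overlapped for 8 of these genes, 2 of them with identical boundaries, and were separate for 4. The hydrated levels given by the tables differed by at most 0.02 for 6 of the 8. Both tables use the same hydrated library, so a like difference in both is no repeat measurement. The 40 other members have a level at only 1 of the dehydrated states, and their level at the other state is not given.

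Position was compared as a property the choice of members did not use. At 70% RWC the region lay in the gene body for 16 of 32 members, or 50% (exact 95% interval 31.9 to 68.1), beside 44.3% of all listed genes and 50.4% of those with a description. At 10% RWC it lay in the body for 20 of 32, or 62.5% (43.7 to 78.9), beside 44.2% of all listed genes and 50.9% of those with a description. Member genes were long, with a median of 4328.5 bp at 70% RWC and 3436 bp at 10% RWC, against 2523 and 2554.5 bp for all listed genes and 3139 and 3167.5 bp for those with a description. The part of gene length in these shares was not tested.

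Upstream regions were few at 10% RWC, for 3 members or 9.38% (interval 1.98 to 25), beside 27.3% of all listed genes and 23.0% of those with a description. They belonged to complex I gene Bhs713_007V1.1, the plasma membrane pump Bhs949_010V1.1 and pyruvate kinase Bhs3049_003V1.1. At 70% RWC 8 members (25%) had an upstream region, beside 26.6% of all listed genes. Regions assigned to flanks lay up to 1651 bp upstream and 1829 bp downstream of their genes. By place, levels at 70% RWC were higher for 14 of 16 body regions and 12 of 16 flank regions, and at 10% RWC for 12 of 20 body regions and 8 of 12 flank regions. Among all listed genes the higher shares at 70% RWC were 71.0% in bodies and 70.3% in flanks, and at 10% RWC 61.5% in bodies and 51.2% in flanks.

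A region was shared with at least 1 neighbouring gene for 13 members at 70% RWC (40.6%, beside 30% of all listed genes) and 7 at 10% RWC (21.9%, beside 30.5%). No region served more than 1 member within a table. Levels of members ranged from 0.04 to 0.60 at 70% RWC and from 0 to 0.83 in the hydrated leaf. In the 10% RWC table they ranged from 0.04 to 0.65 at 10% RWC and from 0 to 0.81 in the hydrated leaf. Among the members higher at 70% RWC the median level was 0.305 at 70% RWC and 0.115 in the hydrated leaf, and among those higher at 10% RWC it was 0.26 at 10% RWC and 0.09 in the hydrated leaf. Members with losses started from higher hydrated levels, with medians of 0.13 at 70% RWC and 0.41 in the hydrated leaf, and of 0.10 at 10% RWC and 0.295 in the hydrated leaf. A loss can be listed only where the hydrated level is the higher of the pair, so that order is fixed by the listing.

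**Figure D4:**
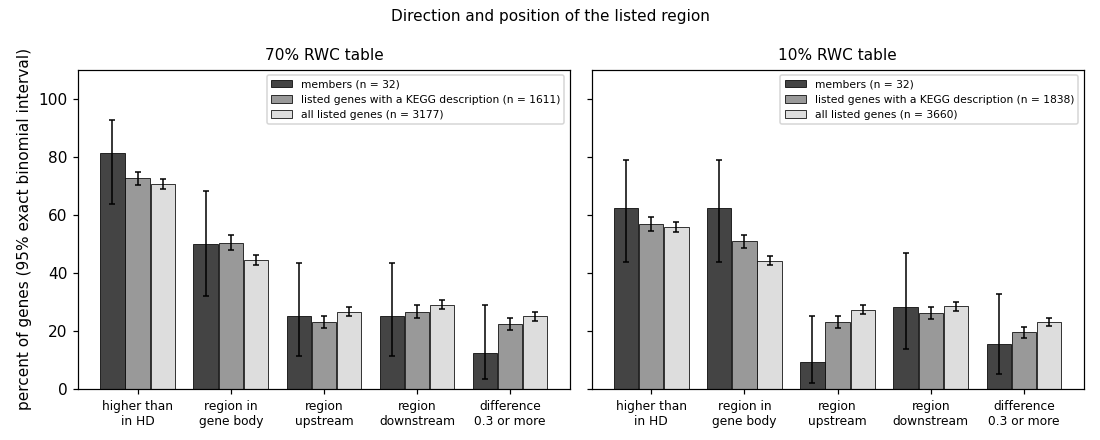
Percent of genes (vertical axis) whose listed region was higher than in the hydrated library, lay in the gene body, upstream or downstream, or differed by 0.3 or more, for members (dark), listed genes with a KEGG description (mid grey) and all listed genes (light), with exact 95% binomial intervals, in the 70% RWC table at left and the 10% RWC table at right. The members' intervals are wide and cover the shares of all listed genes in all cases plotted but 1, the upstream share at 10% RWC (9.38%, upper bound 25%, beside 27.3%). The upstream share of listed genes with a KEGG description, 23.0% at 10% RWC, lies inside that interval. All members have such a description.

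Other genes of carbon and energy metabolism, drawn by keyword for glycolysis, the remaining cycle steps, flavoprotein electron transfer and pyrophosphatase, had gains and losses as well. At 70% RWC 8 were listed, 6 higher and 2 lower, beside 70.6% of all listed genes higher. At 10% RWC 16 were listed, 11 higher and 5 lower, beside 55.8% higher. Of these 16, 1 is an enoyl-CoA hydratase that entered through part of its name. Triosephosphate isomerase gene Bhs26603_001V1.1 was higher in both tables, with 0.47 at 70% RWC and 0.16 in the hydrated leaf in one table, and 0.48 at 10% RWC and 0.15 in the hydrated leaf in the other. The body of Bhs5_151V1.1, an electron-transferring-flavoprotein dehydrogenase that feeds electrons from amino acid breakdown into the respiratory chain, was at 0.18 at 10% RWC and 0.47 in the hydrated leaf. Aconitase Bhs13_010V1.1 was at 0.11 at 10% RWC and 0.03 in the hydrated leaf. No alternative oxidase gene, the bypass of complexes III and IV, was in either table by description. The mitochondrial solute carriers left out by the rule numbered 8 at 70% RWC, 4 higher and 4 lower, and 6 at 10% RWC, 5 higher and 1 lower, beside the same shares of all listed genes.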

How the data were processed

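Per the labels' protocols, leaf DNA was sonicated, ligated to methylated adaptors, bisulfite treated with a commercial kit, size selected and amplified. Genome build, aligner and region caller were not given in the sources used here. Each deposited level is a fraction with 2 decimals, per the file headers an average over the region in each library. The authors' cutoffs were not given either. Among the listed regions the smallest length was 201 bp and the smallest higher level 0.1. The smallest ratio between the levels, which are rounded, was 1.92 at 70% RWC and 1.86 at 10% RWC. The selection of regions leaves unlisted genes without a level. Blank lines (57411 in the 70% RWC table and 54694 in the 10% RWC table) were left out, and each gene's end was computed from its start and length. Positions are the scaffold coordinates of the tables.

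Members, roles and keyword lists were chosen with earlier results of these data known. Named genes are all members of the respiratory complexes and ATP synthase, members in both tables, those differing by 0.3 or more and the extremes of each role; the others were added to account for every member. With 1 library per condition no test was made. Shares carry exact (Clopper-Pearson) 95% intervals, checked on simulated data. The tools were matplotlib 3.10.9, numpy 2.4.6, pandas 2.3.3, scipy 1.17.1 and Python 3.11.15. Alternatives were minimum differences of 0.2 and 0.3, log2 ratios with 0.01 added, counting regions once, regions of 1 gene, narrower sets of members and overlap rules. Leaving out a replicate was not possible.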

Additional observations from a re-analysis of the deposited data

Results flagged for a closer look

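The genes Bhs1799_003V1.1 and Bhs595_031V1.1 stood out because their listed regions moved in opposite directions at the 2 water contents. For the complex I subunit gene Bhs1799_003V1.1 the difference from the hydrated leaf was 0.23 at 70% RWC and -0.33 at 10% RWC. For the plasma membrane H+-ATPase gene Bhs595_031V1.1 it was 0.20 at 70% RWC and -0.18 at 10% RWC. In both genes the tables list separate regions, and the difference between water contents was not tested. The region of Bhs1799_003V1.1 at 70% RWC was also listed in the body of a neighbouring gene. The KEGG match of Bhs1799_003V1.1 is weak (E-value 7e-22).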

How the results depend on the processing

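Among differences of at least 0.3, few members remained: 2 of 4 (50%) were higher at 70% RWC, beside 67.2% of all listed genes, and 2 of 5 (40.0%) at 10% RWC, beside 41.0%, which turns the majority at 10% RWC round. In that subset 0 of 4 regions at 70% RWC and 1 of 5 (20.0%) at 10% RWC lay in gene bodies, beside 35.2% and 30.2% of all listed genes. At 0.2 or more the body share was 53.8% at 70% RWC and 41.7% at 10% RWC, beside 39.1% and 36.6%, so with so few members no place can be given to the large differences. With regions of 1 gene only, the body share was 68.4% at 70% RWC and 68.0% at 10% RWC, beside 52.2% and 52.5% of all listed genes. On a log2 scale the median absolute ratio was 1.18 for members at 70% RWC, beside 1.25 for all listed genes, and 1.24 for both at 10% RWC. Requiring identical boundaries left 2 genes in both tables. Counting regions once could not change the members' increased share, since no region served more than 1 member within a table. The increased share stayed within the members' interval for regions listed for 1 gene and when members were narrowed by role. The same held without the members placed outside mitochondrial respiration or matched to the plastid enzyme (87.5% at 70% RWC and 60% at 10% RWC) and without weak matches (78.6% and 66.7%), both chosen after seeing the data. All these settings keep a part of the same members, so they are no independent check. The number of reads behind any level is unknown, so small differences cannot be told from counting error. The counts are small and describe single libraries. No paired analysis was possible because each condition has 1 library.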
